A study of Mus musculus with 12 samples.

Results

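The genotype difference common to both days was taken as the mean of 2 differences, IFNAR-/- minus wildtype at day 7 and IFNAR-/- minus wildtype at day 14 after infection. All 12 arrays of the series entered it, and it was tested for each of 18193 genes. IFNAR is the receptor for type I interferons. The study asked whether type I interferon signalling starts in the CD11c+ cells of the lung after infection with the fungus Pneumocystis, and what it does to the inflammatory response. The groups were 3 wildtype mice at day 7, 3 IFNAR-/- mice at day 7, 3 wildtype mice at day 14 and 3 IFNAR-/- mice at day 14, with 1 array per mouse. Every mouse, wildtype controls included, had been given Pneumocystis nuclei into the trachea, so no uninfected group enters any value. Strain, age and sex are not given in the labels. The cells were taken from collagenase-digested lung with beads against CD11c, a surface integrin of alveolar macrophages and dendritic cells, and per the labels over 90% were of the wanted kind and under 5% were lymphocytes. Because the mice were separate, the p-values measure the spread between mice.

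Type I interferons are secreted by cells that sense nucleic acids or microbial products. Their receptor, made of Ifnar1 and Ifnar2, works through the kinases Jak1 and Tyk2 and a transcription factor complex that holds Stat2 and Irf9 and binds a short element in the promoters of interferon-stimulated genes. In lung phagocytes that programme is known for antiviral enzymes and for chemokines that draw monocytes, and it is known to temper some inflammatory cytokines.

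The deposited table gives, for every probe set, ratios to the median of that probe set across the series, and each value is the log2 of such a ratio. A value of 0 therefore marks the middle of the series for that gene, values of different genes cannot be set against each other, and neither the level of Itgax (CD11c) nor the presence of other defining markers can be checked. Differences are in log2 units, so that 1 is a doubling, and SE is the standard error that limma gives them. A gene is called where its Benjamini-Hochberg adjusted p is under 0.05. In such bulk samples, fewer cells of a type and less RNA per cell cannot be told apart.

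Ifnar1 itself was not called. Its values were 0.08, 0.64 and 0.07 in the wildtype mice and -0.53, -1.38 and -0.26 in the IFNAR-/- mice at day 7, and -0.15, 0.07 and 0.11 against 0.10, -1.01 and 0.39 at day 14. The genotypes were apart at day 7 and overlapped at day 14, and the mean difference of -0.59 (SE 0.25) had a limma adjusted p of 0.26. Its 2 probe sets gave -0.14 and -1.03, and where they lie relative to the disrupted part of the gene is not given in the sources used here. Of the arrays, IFNAR-/- day 14 mouse 2 had the widest spread of values (interquartile range 0.56, against 0.17 to 0.34 in the others) and IFNAR-/- day 7 mouse 3 stood apart in sex-linked genes (median 1.58, against -0.05 to 0.07 in the others). The control ratio of 5′ to 3′ signal, a sign of RNA quality, lay between -0.91 and -0.18 in wildtype day 14 arrays and between 0.06 and 0.16 in IFNAR-/- day 14 arrays, between 0.08 and 0.18 in wildtype day 7 arrays and between -0.52 and 0.11 in IFNAR-/- day 7 arrays. With this ratio as a covariate 493 genes were called in the mean and 37 at day 14, against 762 and 917 without it. At day 14 the ratio did not overlap between the genotypes, so its part and that of genotype cannot be told apart there. The same holds for the log2 signal of the poly-A controls. It lay between -3.48 and -1.94 in wildtype day 14 arrays and between -1.75 and 0.17 in IFNAR-/- day 14 arrays. At day 7 it overlapped, at 0.83 to 2.15 in wildtype and -3.60 to 1.41 in IFNAR-/- arrays.

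In the mean of both days, 762 of 18193 genes (4.19%) were called, 309 higher (1.7% of all genes) and 453 lower (2.49%) in IFNAR-/- cells. The sizes ran from 0.24 to 3.89, and 73 of the higher and 108 of the lower genes (0.401% and 0.594% of all genes) differed by at least 1. The median difference over all genes was 0.004. The arrays of the genotypes did not overlap on either day, in the same direction, for 157 of the genes called higher (0.863% of all genes) and 268 of those called lower (1.47%). Over all genes 614 (3.37%) had arrays apart in this way. Without IFNAR-/- day 7 mouse 3 and IFNAR-/- day 14 mouse 2 the count was 837, with 450 higher and 387 lower, and the share of lower genes went from 59.4% to 46.2%. It was 49.5% without IFNAR-/- day 14 mouse 2 alone and 59.3% without IFNAR-/- day 7 mouse 3 alone. Without wildtype day 7 mouse 1 as well, it was 648, with 355 higher and 293 lower.

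A call in the mean does not by itself say that the days were alike. Of the 762, 340 genes (1.87% of all genes) had the same sign on both days and a smaller difference at least 0.5 times the larger, 138 of them higher and 202 lower. Another 378 had the same sign and a smaller difference below that share, 153 higher and 225 lower. The remaining 44 had opposite signs, so that a large difference on 1 day carried the mean. The difference between the days was itself called for 2 of the 340, 50 of the 378 and 43 of the 44, against 451 of all genes (2.48%). The same sign and size is partly built into a call in the mean, and over all genes 18.1% met that rule, so the 44.6% among called genes is a description.

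**Figure D1:**
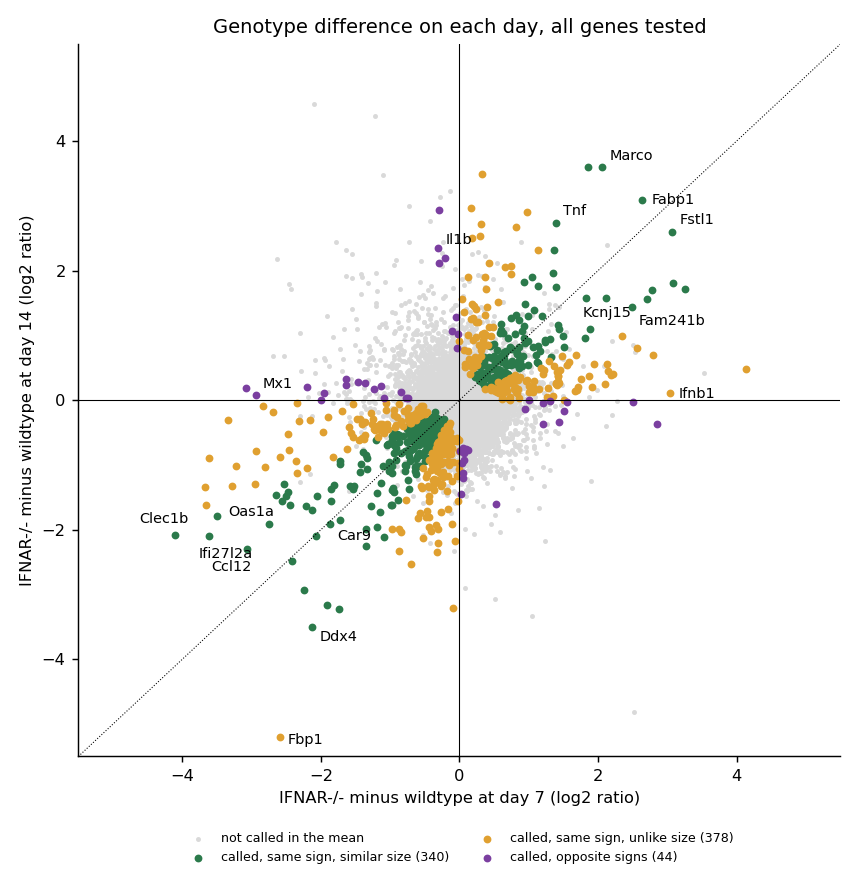
The difference between IFNAR-/- and wildtype at day 7 (x axis, log2 ratio) is plotted against that at day 14 (y axis, log2 ratio) for each gene tested, with the 340, 378 and 44 called genes of each kind in colour and the dotted line where both days are equal. Ccl12, Fstl1 and Fabp1 sit near the dotted line, Ddx4 lies below it at -2.13 and -3.50, and Ifnb1 and Mx1 sit beside the line of no difference at day 14.

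The days used separate mice, so the sign on 1 day of a gene called on the other is an independent reading. Day 7 alone called 481 genes (2.64%) and day 14 alone 917 (5.04%). Of 235 genes called higher at day 7, 153 (65.1%) were above 0 at day 14, with a median of 0.13 there against 0.86 at day 7. Of 246 called lower at day 7, 152 (61.8%) were below 0 at day 14, and the median went from -1.13 to -0.19. In the other direction the shares were 49.7% of 318 genes called higher at day 14 and 54.8% of 599 called lower, beside 48% of all genes with the same sign on both days. Across the 18193 genes, which are not independent replicates, the differences on the 2 days had a Pearson r of 0.106. Most of what was called on 1 day was thus small on the other.

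Genes called on each day by itself, with the same sign, numbered 51 (0.28% of all genes), 34 lower (0.187%) and 17 higher (0.0934%). All 51 were also called in the mean and had arrays that did not overlap on either day, which a call on each day largely builds in. By the rule above 50 were of similar size. In 11 of them the smaller difference was at least 0.9 times the larger. Under quantile normalization the lower count was 33 and the higher count 6, and without the arrays IFNAR-/- day 7 mouse 3 and IFNAR-/- day 14 mouse 2 the counts were 36 lower and 32 higher. Dropping wildtype day 14 mouse 2 brought the 51 down to 27. With the 5′ to 3′ ratio as a covariate 8 genes were called on both days, 3 higher and 5 lower, and with the signal of the poly-A controls 25, 7 higher and 18 lower. The 8 were Bckdhb, Car9, Ddx4, Fam241b, Fstl1, G530011O06Rik, Pop4 and Prdx2, all among the 51. No gene of the interferon lists was one of them. In the mean, Oas1a, Ifi27l2a, Usp18 and Trim30d were still called with the 5′ to 3′ covariate. A stricter rule, in which the larger of both unadjusted p-values was adjusted over all genes, called 8 (0.044%), and these were Car9, Cd300ld, Fam241b, Kcnj15, Oas1a, Pop4, Prdx2 and Tbc1d2.

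**Figure D2:**
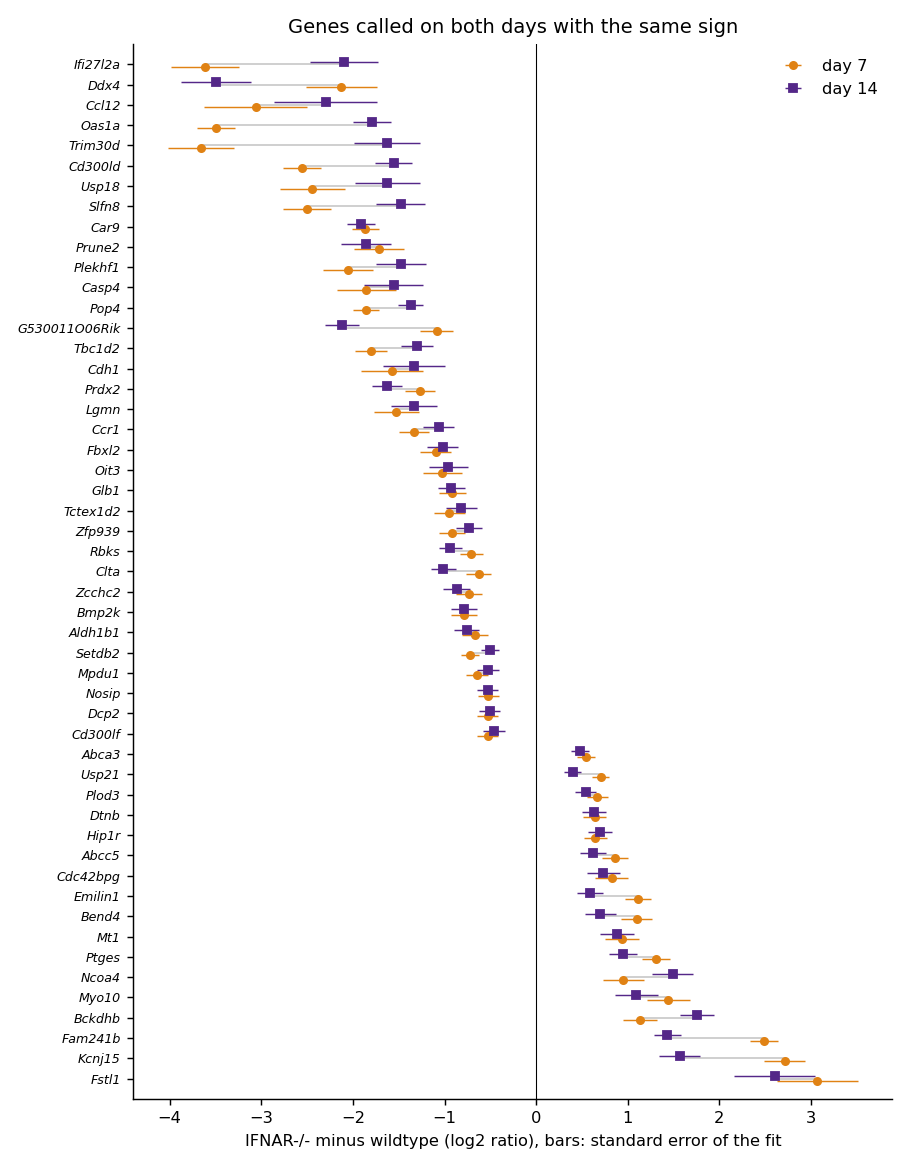
For the 51 genes called on both days, the difference between IFNAR-/- and wildtype is shown for day 7 (circles) and day 14 (squares) in log2 ratio, with bars for the SE of the fit. Car9, Glb1 and Bmp2k have nearly the same value on both days, and Ifi27l2a, Oas1a and Trim30d are lower by more at day 7.

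Of the 34 genes lower on both days, 4 were in the 8 lists of interferon-stimulated genes, and these were Oas1a, Ifi27l2a, Trim30d and Slfn8. Oas1a, an oligoadenylate synthetase that activates the ribonuclease RNase L, had the lowest p of these. Its values were 1.60, 1.80 and 1.59 in wildtype and -1.87, -1.36 and -2.28 in IFNAR-/- mice at day 7. At day 14 they were 0.61, 0.55 and 0.77 against -0.97, -1.0 and -1.47. Every wildtype array was above every IFNAR-/- array, and wildtype was lower at day 14 than at day 7. Oas1a fell by 2.64 (SE 0.15, limma adjusted p = 8.11e-06), -3.50 at day 7 and -1.79 at day 14, and the narrowing of 1.70 between the days was called (95% interval 1.06 to 2.35, adjusted p = 0.018).

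Ifi27l2a, an interferon-inducible protein of mitochondria and the nuclear envelope, read 2.46, 2.80 and 2.68 in wildtype and -1.50, -1.06 and -0.33 in IFNAR-/- mice at day 7. At day 14 it read 1.25, 0.25 and 0.29 against -0.97, -1.31 and -2.22, again with no overlap. It fell by 2.86 (SE 0.26, limma adjusted p = 0.00037). Usp18, of the list of the receptor and its signal transducers, is the protease that removes ISG15 from proteins and damps receptor signalling. It read 1.16, 1.86 and 0.71 against -1.72, -1.46 and -0.43 at day 7 and 0.82, 0.98 and 0.32 against -1.06, -0.57 and -1.12 at day 14. It fell by 2.03 (SE 0.25, adjusted p = 0.0018), with no call for a difference between the days (0.82, 95% interval -0.28 to 1.93). Trim30d, of the tripartite-motif family, fell by 2.64 (SE 0.26), -3.66 at day 7 and -1.62 at day 14. Its 2 probe sets gave -3.49 and -1.80. Slfn8, a Schlafen family member, fell by 1.99 (SE 0.19).

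The other genes lower on both days were in none of the interferon lists used here. Casp4, the caspase of the noncanonical inflammasome, fell by 1.71 (SE 0.23), and Setdb2, a histone methyltransferase, fell by 0.61 (SE 0.07). Car9, a carbonic anhydrase at the cell surface, read 0.63, 1.02 and 0.53 in wildtype and -1.20, -0.94 and -1.28 in IFNAR-/- mice at day 7, and 0.80, 0.78 and 0.99 against -0.87, -1.17 and -1.13 at day 14. Each genotype held the same range on both days, and the genotypes were far apart. The fall was 1.89 (SE 0.10, limma adjusted p = 8.11e-06), -1.87 at day 7 and -1.91 at day 14, and the 95% interval of the difference between the days ran from -0.51 to 0.42.

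Pop4, a protein subunit of ribonuclease P, read 0.64, 0.28 and 0.22 against -1.65, -1.45 and -1.33 at day 7 and 0.83, 1.14 and 1.09 against -0.43, -0.29 and -0.33 at day 14. It fell by 1.61 (SE 0.10), and its neighbour on the chromosome Plekhf1, an endosomal protein, fell by 1.76 (SE 0.19). Cd300ld, a receptor of the CD300 family on myeloid cells, read 1.13, 0.44 and 0.94 against -1.29, -1.83 and -2.04 at day 7 and 0.69, 0.89 and 0.91 against -0.68, -0.66 and -0.83 at day 14. The wildtype values were alike on both days, and the IFNAR-/- values were further down at day 7. It fell by 2.06 (SE 0.14), and its relative Cd300lf fell by 0.50 (SE 0.08). Tbc1d2, a regulator of Rab GTPases, fell by 1.56 (SE 0.12), -1.81 at day 7 and -1.30 at day 14.

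Prdx2, a peroxiredoxin that removes hydrogen peroxide, read 0.19, 0.28 and 0.38 against -1.09, -0.85 and -1.03 at day 7 and 1.45, 0.85 and 0.88 against -0.69, -0.33 and -0.69 at day 14. It fell by 1.45 (SE 0.12), with probe sets at -0.52 and -2.38 that agreed in direction and not in size. Ddx4, an RNA helicase best known from germ cells, read 0.94, -0.33 and 0.37 against -1.69, -1.72 and -1.99 at day 7 and 2.81, 2.87 and 4.19 against -0.41, -0.47 and 0.26 at day 14. Both genotypes stood higher at day 14, and the difference was -2.13 at day 7 and -3.50 at day 14 (95% interval of the change -2.57 to -0.17, adjusted p = 0.21). It fell by 2.81 (SE 0.27, limma adjusted p = 0.00044) on a single probe set. Lgmn, the protease legumain, fell by 1.43 (SE 0.18) and Glb1, beta-galactosidase, fell by 0.92 (SE 0.10). Neither is in the lysosome list used here. Glb1 was -0.91 at day 7 and -0.92 at day 14. Ccr1, a chemokine receptor of myeloid cells, fell by 1.20 (SE 0.12), and Clta, a clathrin light chain, by 0.82 (SE 0.10).

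None of the 17 genes higher on both days was in the cytokine or chemokine lists. Fstl1, a secreted glycoprotein of the follistatin family, read 0.06, -0.28 and -0.08 in wildtype and 3.28, 3.59 and 2.06 in IFNAR-/- mice at day 7. At day 14 it read -2.76, -3.03 and -1.53 against 0.04, 0.74 and -0.28. Both genotypes were lower at day 14, and the IFNAR-/- arrays stayed above the wildtype arrays. It rose by 2.84 (SE 0.31, limma adjusted p = 0.000998), by 3.07 at day 7 and by 2.60 at day 14, and its 2 probe sets gave 2.78 and 2.90.

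Kcnj15, an inwardly rectifying potassium channel, read -0.14, 0.09 and -0.06 against 3.18, 2.40 and 2.45 at day 7 and -1.32, -1.66 and -1.50 against 0.46, -0.26 and 0.02 at day 14. It rose by 2.14 (SE 0.16), with 3.49, 1.19 and 1.74 from its 3 probe sets. Kcnj15 lies 39 measured genes from Ifnar1 in gene order and is given below with the genes beside Ifnar1. Fam241b read -0.69, -0.55 and -1.01 against 1.65, 1.87 and 1.70 at day 7 and -0.68, -0.77 and -0.98 against 0.66, 0.38 and 0.83 at day 14. Wildtype held 1 range over both days, and the IFNAR-/- arrays came down between them. It rose by 1.96 (SE 0.11, limma adjusted p = 8.11e-06), and the change of -1.06 between the days was called (95% interval -1.53 to -0.58).

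Ptges, the prostaglandin E synthase, read -0.28, -0.17 and -0.08 against 1.23, 1.25 and 0.92 at day 7 and -0.99, -0.47 and -0.66 against 0.38, 0.27 and 0.07 at day 14. It rose by 1.13 (SE 0.10), and its 3 probe sets gave 1.29, 0.98 and 1.12. Bckdhb, a subunit of the dehydrogenase that breaks down branched-chain amino acids, rose by 1.45 (SE 0.13), by 1.14 at day 7 and by 1.76 at day 14. Emilin1, an elastic fibre glycoprotein, rose by 0.85 (SE 0.10). Smaller rises on both days were those of Ncoa4, the receptor that sends ferritin to the lysosome (1.22, SE 0.16), Myo10, a myosin of filopodia (1.27, SE 0.17), Mt1, a metallothionein (0.91, SE 0.13), and Abca3, a lipid transporter (0.51, SE 0.07).

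**Figure D3:**
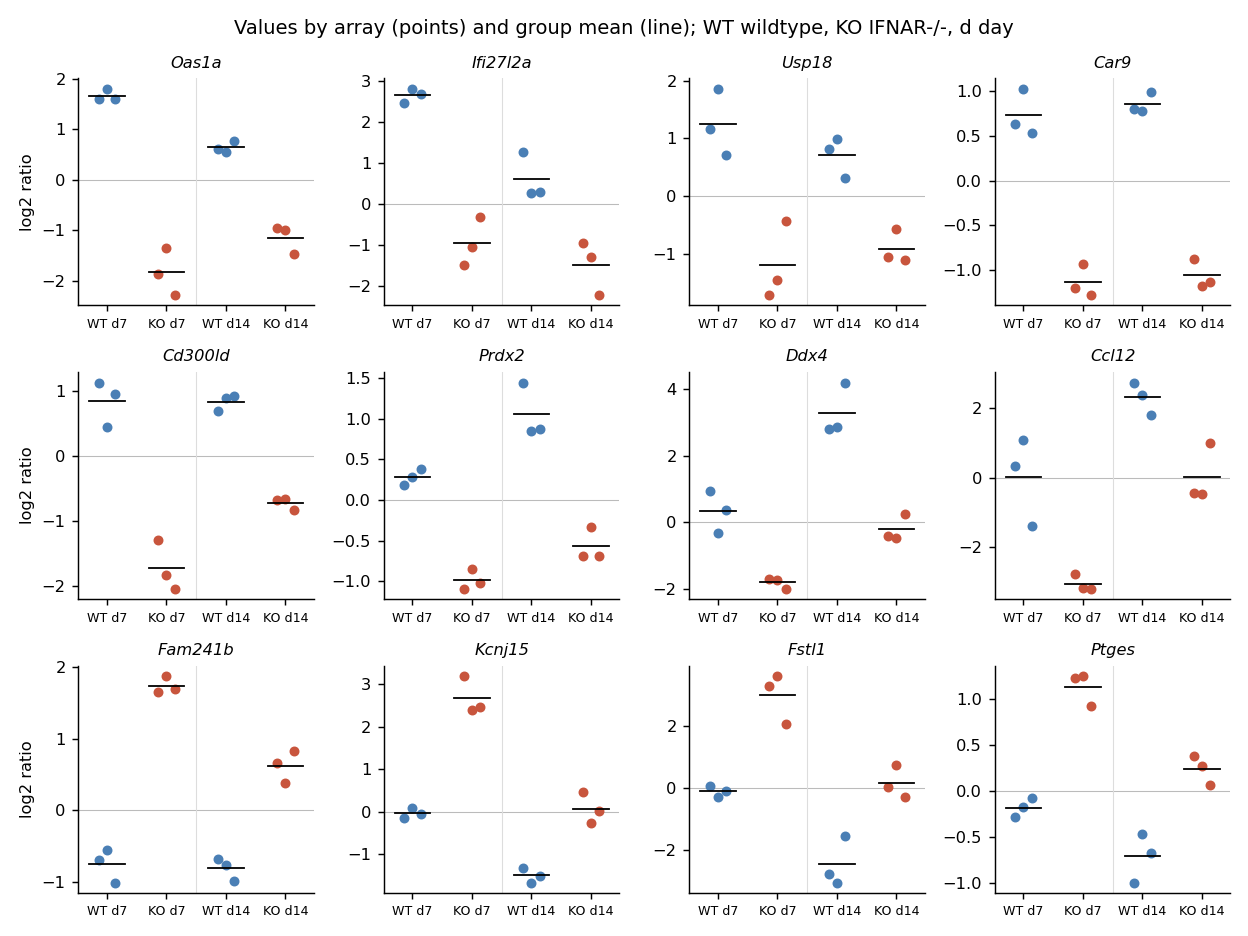
Log2 ratios of 12 genes called on both days are drawn for each array (points) with the group mean (line), in wildtype (WT) and IFNAR-/- (KO) mice at day 7 (d7) and day 14 (d14). Within a day no IFNAR-/- array reaches the wildtype range in any of these genes, which a call on each day largely builds in. Fstl1 and Ddx4 also differ between the days in both genotypes.

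The largest differences of the mean, among called genes whose arrays were apart on both days, extended beyond the genes that passed on each day. Clec1b, a C-type lectin receptor for podoplanin, read 4.12, 3.90 and 0.13 in wildtype and -1.31, -1.21 and -1.61 in IFNAR-/- mice at day 7, and 0.18, 2.67 and 1.64 against -0.16, -1.28 and -0.32 at day 14. It had the largest fall (-3.09, SE 0.65, limma adjusted p = 0.024) and wide wildtype groups, and it passed in 6 of the 12 fits that left out 1 array (highest adjusted p 0.0599, without wildtype day 14 mouse 2). Without IFNAR-/- day 7 mouse 3 and IFNAR-/- day 14 mouse 2 it was -2.86 with an adjusted p of 0.0715. The lectin Cd209e, a relative of DC-SIGN, fell by 2.45 (SE 0.43), -2.41 at day 7 and -2.48 at day 14. Tmem26, a membrane protein, fell by 2.53 (SE 0.32) and Mtmr7, a phosphoinositide phosphatase, fell by 2.50 (SE 0.29). The probe sets of Mtmr7 were unlike, at -1.14 and -3.87. Mmp13, a collagenase, was lower by -2.33 (SE 0.56) and passed in 2 of the 12 fits that left out 1 array (highest adjusted p 0.0985, without wildtype day 14 mouse 3). It was -1.49 (adjusted p 0.0296) without IFNAR-/- day 7 mouse 3 and IFNAR-/- day 14 mouse 2, and it was not called under 4 other settings given below.

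On the higher side Fabp1, a fatty acid binding protein, read -0.08, 0.08 and 1.42 in wildtype and 2.88, 3.16 and 3.29 in IFNAR-/- mice at day 7, and -2.71, -4.57 and -2.71 against 1.70, -1.19 and -1.23 at day 14. It rose by 2.86 (SE 0.53, limma adjusted p = 0.013) and was not called under quantile normalization. Marco, a scavenger receptor of macrophages, read -0.95, 0.13 and 1.10 against 2.21, 2.06 and 2.20 at day 7 and -3.24, -4.96 and -2.04 against 1.22, -0.16 and -0.51 at day 14. It rose by 2.83 (SE 0.49, adjusted p = 0.010). In both genes every group was lower at day 14 than the same genotype at day 7. BC018473, known by its clone name, rose by 2.49 (SE 0.35), with probe sets at 4.16 and 0.82. Nfkbiz, an inducible nuclear inhibitor of the NF-kB family, rose by 1.75 (SE 0.32), and Cdo1, a cysteine dioxygenase, by 1.75 (SE 0.31). Hp, haptoglobin, rose by 1.84 (SE 0.40) and Krt19, a keratin, by 1.84 (SE 0.39). Hp passed in 5 of the 12 fits that left out 1 array (highest adjusted p 0.0667, without IFNAR-/- day 14 mouse 1) and Krt19 in 8 (0.0617, without wildtype day 14 mouse 2).

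The lists of interferon-stimulated genes moved one way. Over 8 such lists joined, 43 of 108 measured genes (39.8%) were called lower and 0 higher in the mean, beside 2.49% and 1.7% of all genes. Their median was -0.50, beside 0.004 for all genes, and without IFNAR-/- day 7 mouse 3 and IFNAR-/- day 14 mouse 2 the count called lower was 52. Both days did not weigh alike in it. The median was -0.91 at day 7 and -0.13 at day 14, and 61 of the 108 were below 0 on both days while 42 were below 0 at day 7 and above it at day 14. At day 7 42 were called lower, at day 14 6 were called lower and 2 higher. Of the 43 called in the mean, 12 were of similar size on both days, 26 had the same sign and unlike size, 5 had opposite signs, and 40 had the larger fall at day 7. Among the 42 called lower at day 7, 30 (71.4%) were below 0 at day 14, with a median of -0.26 there. Of 204 other genes called lower at day 7, 122 (59.8%) were, with a median of -0.19. The difference between these shares was not tested.

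Of the oligoadenylate synthetase family and RNase L, 6 of 7 measured genes were called lower, with a median of -1.33 (-1.72 at day 7 and -1.01 at day 14). Oas3 fell by 1.92 (SE 0.20), -2.81 at day 7 and -1.03 at day 14, and Oas2 by 1.33 (SE 0.17). Oas1c fell by 0.62 (SE 0.12), -0.69 at day 7 and -0.55 at day 14. Without IFNAR-/- day 7 mouse 1 its adjusted p was 0.050 and missed the threshold. Members of this family are close in sequence, and RNA of 1 can be taken up by a probe set of another.

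In the list of IFIT, Mx, viperin and ISG15 genes, antiviral effectors that bind or block viral RNA and proteins, 9 of 18 were called lower, with a median of -0.70 (-1.23 at day 7 and -0.21 at day 14). Rsad2, which is viperin, read 2.05, 3.29 and 1.82 in wildtype and 0.51, 0.51 and 1.53 in IFNAR-/- mice at day 7, and -0.41, -0.74 and -0.54 against -1.65, -1.73 and -2.40 at day 14. It fell by 1.45 (SE 0.27, limma adjusted p = 0.013), -1.54 at day 7 and -1.36 at day 14. Neither day alone was called, and the arrays did not overlap on either. Mx1, a GTPase that blocks viral nucleocapsids, fell by 1.43 (SE 0.21) from a difference of -2.94 at day 7 and 0.08 at day 14. Ifit1 fell by 1.44 (SE 0.31), -0.84 at day 7 and -2.04 at day 14, and passed in 5 of the 12 fits that left out 1 array (highest adjusted p 0.0674, without IFNAR-/- day 7 mouse 1). Isg15 was not analysed here, because no probe set carried its symbol alone.

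The Ifi200 family, DNA-binding proteins of the nucleus and cytosol, had 5 of 8 measured members called lower, with a median of -1.04 (-1.33 at day 7 and -0.17 at day 14). Ifi209 fell by 2.25 (SE 0.27), -3.61 at day 7 and -0.89 at day 14. Ifi207 went the other way over time, by -0.96 at day 7 and -1.36 at day 14, and fell by 1.16 (SE 0.21) in the mean. Ifi204 fell by 1.5 (SE 0.25). Ifi213 fell by 1.46 (SE 0.19), all of it at day 7 (-2.84, against -0.09 at day 14). In the nucleic acid sensor list 3 of 14 were called lower. Zbp1, a sensor of Z-form nucleic acid, fell by 1.19 (SE 0.24) and Sting1, the adaptor of cytosolic DNA sensing, by 0.55 (SE 0.11). Without IFNAR-/- day 7 mouse 1 both missed the threshold (adjusted p 0.050 for Zbp1 and 0.0514 for Sting1).

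Among the interferon-linked Trim genes 4 of 10 were called lower. Trim30a fell by 1.01 (SE 0.11), while Trim34a (-1.20, SE 0.25) passed in 5 of the 12 fits that left out 1 array and Trim25 (-0.52, SE 0.13) in 2, with highest adjusted p of 0.0579 when wildtype day 14 mouse 2 was left out and 0.121 when IFNAR-/- day 7 mouse 1 was. The Schlafen list had 1 of 8 called lower and the list of interferon-inducible GTPases 1 of 11. The GTPases had a median of -0.97 at day 7 and 0.57 at day 14, and -0.20 in the mean, with 8 of 11 below 0. That median was -0.71, with 2 called lower, without IFNAR-/- day 7 mouse 3 and IFNAR-/- day 14 mouse 2. Of the other interferon-stimulated genes 16 of 36 were called lower, with a median of -0.52. They included Rtp4, a chaperone of membrane receptors (-1.73, SE 0.22), Fcgr1, a high-affinity receptor for IgG (-1.34, SE 0.20), and Phf11d (-1.24, SE 0.19).

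Of the receptor and its signal transducers 5 of 19 were called lower and 0 higher, and the median was -0.23. Besides Usp18, these were the transcription factors Irf7 (-1.74, SE 0.26) and Irf9 (-0.79, SE 0.12), the kinase Jak2 (-0.77, SE 0.15) and the suppressor Socs1 (-0.92). Irf9 read 0.67, 0.92 and 0.57 against -0.24, -0.63 and 0.09 at day 7 and -0.11, 0.26 and 0.14 against -0.39, -0.62 and -0.52 at day 14. The genotypes were apart on both days. Not called were Ifnar2 (-0.22, adjusted p = 0.51), Jak1 (0.33, adjusted p = 0.35), Tyk2 (0.11, adjusted p = 0.64) and Stat2 (-0.33, adjusted p = 0.56). The 3 probe sets of Jak1 disagreed, with mean differences of -0.13, 1.20 and -0.09. Of the type I interferon genes 1 of 9 was called, Ifnb1, which rose by 1.57 (SE 0.24, adjusted p = 0.0055) from 3.03 at day 7 and 0.11 at day 14.

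**Figure D4:**
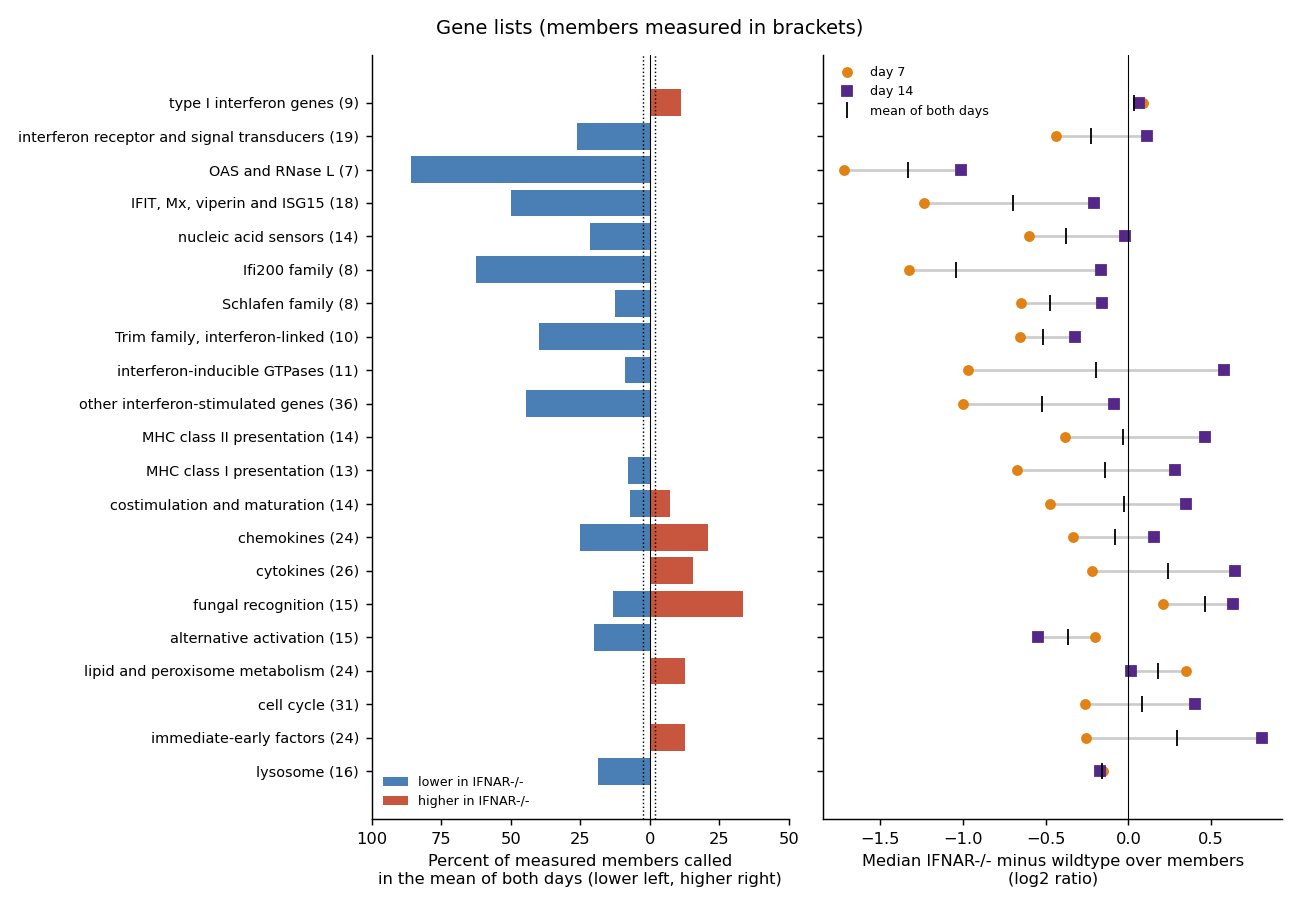
For each gene list the left panel gives the percent of measured members called lower (left of 0) or higher (right of 0) in the mean of both days, with dotted lines at the 2.49% and 1.7% of all genes, and the right panel gives the median difference over the members at day 7, at day 14 and in the mean, in log2 ratio. The OAS list lies below 0 on both days, at -1.72 and -1.01, and the list of interferon-inducible GTPases lies on opposite sides, at -0.97 and 0.57.

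Because the receptor acts through a promoter element, the promoters of called genes were searched for a core of 2 GAAA blocks with any 2 bases between them, and for a longer form in which CT follows the core, on both strands (2 TTTC blocks on the other strand), in RefSeq's GRCm38.p6 windows of 250 bases before to 50 after a gene's start. A promoter was found for 368 of the 453 genes called lower, 257 of the 309 called higher and 14368 of the 18193 tested. The core was present in 29 genes called lower (7.88%), 12 called higher (4.67%) and 523 of all (3.64%). The longer form, which is contained in the core's matches, was present in 12 genes called lower (3.26%), 0 called higher and 44 of all (0.306%). Genes called lower outside the interferon lists held the core too, among them Mmp13, Zfp994, Tgfbi, Gna13, Tprkb and Mrps18c. Stretches before the gene start are shown for genes of the interferon lists that fell in the mean. The core is in capitals, and the stretches are read 5′ to 3′ on the gene's own strand. They show how differently the element is placed. They lie at chr5:120907526-120907590 (minus strand, Oas1a), chr11:83020811-83020903 (minus strand, Slfn8), chr12:26456518-26456617 (minus strand, Rsad2), chr1:173741810-173741895 (minus strand, Ifi207) and chr5:120812568-120812673 (minus strand, Oas1c).
Oas1a: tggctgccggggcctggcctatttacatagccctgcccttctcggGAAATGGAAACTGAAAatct
Slfn8: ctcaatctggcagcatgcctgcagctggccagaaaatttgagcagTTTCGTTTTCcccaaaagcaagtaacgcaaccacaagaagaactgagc
Rsad2: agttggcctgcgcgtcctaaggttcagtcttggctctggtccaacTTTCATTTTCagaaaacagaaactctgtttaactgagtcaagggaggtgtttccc
Ifi207: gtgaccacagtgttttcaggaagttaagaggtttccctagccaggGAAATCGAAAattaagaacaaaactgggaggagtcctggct
Oas1c: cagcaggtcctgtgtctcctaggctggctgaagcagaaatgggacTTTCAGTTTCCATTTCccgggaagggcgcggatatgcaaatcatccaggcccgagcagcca

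The Oas1a and Oas1c stretches hold 2 overlapping copies of the core each, and in Oas1a they end 4 bases before the gene start, while in Oas1c they end 98 bases before it. Slfn8 has its copy 38 bases before the start, Ifi207 has it 31 bases before and Rsad2 110 bases before. The copies of Slfn8, Rsad2 and Oas1c are on the other strand, and those of Oas1a and Ifi207 on the gene's own strand. These genes also differed in how even their fall was, from Rsad2 and Oas1c, with -1.54 and -0.69 at day 7 and -1.36 and -0.55 at day 14, to Oas1a, with -3.50 and -1.79. Among the 202 genes that fell by a similar size on both days, 13 of 166 with a promoter held the core (7.83%), and among the 34 called lower on each day 3 of 29 did (10.3%), all 3 with the longer form. Genes called lower at day 7 and not called at day 14 held the core in 15 of 151 (9.93%), 5 of them with the longer form. Genes called lower at day 14 and not called at day 7 held the core in 12 of 463 (2.59%). A match describes letters in this window, and no match says only that these letters are not in it.

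For the lists and markers from here on, the shares over all genes are 1.7% called higher and 2.49% called lower. Of 24 measured chemokines, 5 were called higher and 6 lower, with a median of -0.08. Those lower attract monocytes, eosinophils or T cells. Ccl12, a monocyte attractant, read 0.34, 1.08 and -1.40 in wildtype and -2.78, -3.18 and -3.20 in IFNAR-/- mice at day 7, and 2.74, 2.39 and 1.81 against -0.45, -0.48 and 0.99 at day 14. The genotypes did not overlap on either day, and both stood higher at day 14. Ccl12 fell by 2.68 (SE 0.40, limma adjusted p = 0.0049). Ccl7 fell by 2.30 (SE 0.39), Ccl8 by 1.91 (SE 0.37) and Ccl2 by 1.61 (SE 0.24), and all 3 lie in the same chromosome 11 cluster as Ccl12. Ccl24 (-1.08, SE 0.23) and Ccl22 (-0.95, SE 0.20) passed in 5 and 7 of the 12 fits that left out 1 array (highest adjusted p 0.0668 without IFNAR-/- day 14 mouse 1, and 0.0580 without IFNAR-/- day 7 mouse 1), and without both IFNAR-/- day 7 mouse 3 and IFNAR-/- day 14 mouse 2 the adjusted p of Ccl22 was 0.0558.

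Of the chemokines called higher, Cxcl1, Cxcl2 and Cxcl3 attract neutrophils, and Ccl3 and Cxcl14 mainly attract monocytes, macrophages or dendritic cells. Cxcl1 read 0.48, -0.58 and -0.02 against 1.00, 0.88 and 0.91 at day 7 and -3.63, -3.84 and -3.14 against 0.24, -2.14 and 0.00 at day 14. It rose by 1.94 (SE 0.36, limma adjusted p = 0.013), by 0.97 at day 7 and by 2.91 at day 14. Cxcl2 rose by 1.42 (SE 0.20), Cxcl3 by 0.84, Ccl3 by 0.80 and Cxcl14 by 1.05. The difference in Cxcl2 was 0.30 at day 7 and 2.54 at day 14, and that between the days was called (adjusted p = 0.022). Cxcl10, an interferon-inducible attractant of T cells, was not called (0.83, SE 0.32, adjusted p = 0.21), at -0.09 on day 7 and 1.74 on day 14.

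Of the cytokine list 4 of 26 were called higher and 0 lower, with a median of 0.24 that came from -0.22 at day 7 and 0.64 at day 14. Tnf, a cytokine of acute inflammation, read 0.18, -0.20 and -0.52 in wildtype and 1.17, 0.89 and 1.57 in IFNAR-/- mice at day 7, and -3.35, -2.49 and -2.41 against 0.66, -1.10 and 0.42 at day 14. The genotypes were apart on both days, and the wildtype arrays were far lower at day 14. Tnf rose by 2.07 (SE 0.29, limma adjusted p = 0.0040). Il18, an inflammasome cytokine, rose by 1.66 (SE 0.28), by 1.35 at day 7 and by 1.96 at day 14, and was not called under quantile normalization (1.09, adjusted p = 0.12). Il1a rose by 1.51 (SE 0.24) and Il1b by 1.02 (SE 0.15), from 0.31 and -0.30 at day 7 and 2.72 and 2.35 at day 14. Without IFNAR-/- day 7 mouse 3 and IFNAR-/- day 14 mouse 2, 9 of the 26 were called higher.

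In the fungal recognition list 5 of 15 were called higher and 2 lower, with a median of 0.47. Clec4e, the lectin receptor Mincle, read -0.91, -0.09 and -1.51 against 0.35, 0.17 and 0.35 at day 7 and -3.19, -1.96 and -1.39 against 0.16, 0.12 and 0.13 at day 14. The IFNAR-/- arrays held a narrow range over both days. Clec4e rose by 1.72 (SE 0.29), and with it rose Marco, Clec4n (0.82), the receptor Tlr2 (0.84) and the kinase Syk (0.67). Clec7a, which is dectin-1, fell by 0.36 (SE 0.06) from -0.85 at day 7 and 0.12 at day 14. Cd209a fell by 1.93 (SE 0.35). Of 24 immediate-early factors 3 were called higher and 0 lower, Egr1 (1.07, SE 0.17), Ier2 (1.15, SE 0.25) and Zfp36 (0.61, SE 0.13). Ier2 and Zfp36 each passed in 4 of the 12 fits that left out 1 array (highest adjusted p 0.0645 without IFNAR-/- day 14 mouse 1, and 0.0687 without wildtype day 14 mouse 3), and without the arrays IFNAR-/- day 7 mouse 3 and IFNAR-/- day 14 mouse 2 8 of the 24 were called higher.

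The alternative activation list, genes that macrophages raise under type 2 cytokines, had 3 of 15 called lower and 0 higher, with a median of -0.36. Arg1, arginase, read -0.58, -0.15 and -0.59 against -2.0, -2.61 and -3.67 at day 7 and 0.41, 0.86 and 0.75 against 0.32, 0.11 and 0.63 at day 14. The genotypes were apart at day 7 and overlapped at day 14. Arg1 fell by 1.32 (SE 0.24), -2.32 at day 7 and -0.32 at day 14. Pdcd1lg2, a ligand of the checkpoint receptor PD-1, fell by 1.92 (SE 0.31) with arrays apart on both days and was not called under quantile normalization (-1.66, adjusted p = 0.072), and Ccl24 is given above. In the list of lipid and peroxisome metabolism 3 of 24 rose, Fabp1, Cdo1 and Acaa1b, a peroxisomal thiolase (2.31, SE 0.48). Cdo1 is in that list although it acts on cysteine. None of the 3 was called under quantile normalization. Acaa1b was 4.13 at day 7 and 0.48 at day 14. It passed in 8 of the 12 fits that left out 1 array (highest adjusted p 0.0581, without wildtype day 14 mouse 2). Of 16 lysosomal genes 3 were called lower, among them Ctsl, the protease cathepsin L (-1.01, SE 0.15), which was -0.11 at day 7 and -1.90 at day 14 and whose probe sets were at -0.27 and -1.74.

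Some lists had no common difference while the days differed. Of 14 genes of MHC class II presentation 0 were called in the mean by limma, with a median of -0.03 from -0.38 at day 7 and 0.46 at day 14. H2-Ab1, a class II chain, was -0.24 (SE 0.11, adjusted p = 0.30), with -0.97 at day 7 and 0.50 at day 14. Of 31 cell cycle genes 0 were called, with a median of 0.08. Of 13 class I genes 1 was called lower, H2-M3 (-0.85). Of 14 costimulation genes Icosl, the ligand of ICOS, rose (0.47, SE 0.08), with probe sets of opposite sign at 1.01 and -0.07. Pdcd1lg2 fell, and Cd40 and Cd86 were not called (-0.96, adjusted p = 0.083, and -0.66, adjusted p = 0.086). Itgax was 0.12 (SE 0.09, adjusted p = 0.58).

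Markers of other cells moved with some of these lists, and their part in the results was not tested. Of 10 plasmacytoid dendritic cell markers, cells known for making type I interferon, 5 were called lower and 0 higher, with a median of -0.42. The median of these markers on an array was 0.09 to 0.27 in wildtype and -0.45 to -0.22 in IFNAR-/- mice at day 7, and 0.16 to 0.46 against -0.27 to 0.02 at day 14, so the genotypes were apart on both days. Array medians were likewise apart on both days in the OAS and Schlafen lists, and overlapped on at least 1 day in the other lists of interferon-stimulated genes. Klk1 (-1.30, SE 0.23), with probe sets at -2.53, -2.35, -0.39 and 0.08, Siglech (-0.41, SE 0.09) and Bst2 (-0.99, SE 0.20) were among them, and Bst2 is itself interferon-stimulated and in the IFIT and Mx list. Siglech passed in 3 of the 12 fits that left out 1 array (highest adjusted p 0.0828), and Bst2 in 11 (0.0551), both highest without IFNAR-/- day 7 mouse 1. Of 19 conventional dendritic cell markers 4 were called lower, among them the transcription factor Batf3 (-0.80, SE 0.15) and Cd209a, and their array medians were 0.08 to 0.25 against -0.36 to -0.09 at day 7 and -0.30 to -0.05 against -0.10 to 0.22 at day 14.

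Of 13 alveolar macrophage markers 3 were called higher, Marco, Fabp1 and the keratin Krt79 (1.35, SE 0.29), and 0 lower. Their array medians were -0.17 to 0.71 in wildtype and 0.49 to 0.93 in IFNAR-/- mice at day 7 and -0.89 to -0.38 against -0.48 to 0.05 at day 14, overlapping on both days. Krt79 passed in 6 of the 12 fits that left out 1 array (highest adjusted p 0.0626, without IFNAR-/- day 14 mouse 1). Of 13 neutrophil markers 2 were called higher, S100a8 (1.39, SE 0.27) and Lcn2 (2.73, SE 0.55). Their array medians overlapped at day 7, at -0.21 to 0.29 in wildtype and -0.08 to 1.87 in IFNAR-/- mice. At day 14 they were -0.40 to -0.14 against 0.02 to 0.26. S100a8 was not called without IFNAR-/- day 7 mouse 3, IFNAR-/- day 14 mouse 2 and wildtype day 7 mouse 1. Lcn2 overlapped between the genotypes at day 7 and was not called without wildtype day 14 mouse 2 (adjusted p 0.0538). Of 18 lung epithelial markers Krt19 was higher and Cdh1, the adhesion protein E-cadherin, was lower on both days (-1.45, SE 0.24). Epithelial medians on single arrays reached 1.84 in wildtype and 2.20 in IFNAR-/- mice at day 7. Those of endothelial markers reached 1.71 and 2.44 and those of fibroblast markers 1.10 and 2.31. In the mean 13 of 15 endothelial and 14 of 15 fibroblast markers were above 0, with medians of 0.40 and 0.31. Without IFNAR-/- day 7 mouse 3 and IFNAR-/- day 14 mouse 2 the medians were -0.003 and 0.03. Without wildtype day 7 mouse 1 as well they were 0.34 and 0.14, and 1 endothelial marker was called higher. Fstl1 and Emilin1, which were higher, were at 2.84 and 0.85 with all arrays. Without IFNAR-/- day 7 mouse 3 and IFNAR-/- day 14 mouse 2 they were at 2.92 and 0.88. That fit kept wildtype day 7 mouse 1, and the part of endothelial cells or fibroblasts in these rises was not tested. None of 12 monocyte, 15 T cell, 17 natural killer cell, 13 B cell, 15 endothelial or 15 fibroblast markers was called by limma in the mean. T cell markers had a median of -0.57 at day 7 and 0.70 at day 14, and natural killer markers -0.94 and 1.04.

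Of 83 called genes chosen by the naming rule, 63 passed whichever array was left out. Quantile normalization ended 16 calls, of Fabp1, Krt19, Hp, Cdo1, Mmp13, Jak2, Pdcd1lg2, Il18, Arg1, Ccl24, Acaa1b, Krt79, Batf3, Ccl22, Siglech and Ifit1, and moved Ccl24 to -0.57 and Ccl22 to -0.41. The 5′ to 3′ covariate ended 9, of Clec1b, Mmp13, Trim25, Trim34a, Ier2, Zfp36, Lamp2, Siglech and Ifit1. Leaving out both IFNAR-/- day 7 mouse 3 and IFNAR-/- day 14 mouse 2 ended those of Clec1b, Lamp2, Krt79 and Ccl22, and leaving out wildtype day 7 mouse 1 as well ended 13 in all. The additive model ended 26, Mmp13 and Mx1 among them, the trended and robust prior ended 17, Irf7 and Cxcl2 among them, and the block by mouse number ended those of Mmp13, Trim25, Lamp2 and Siglech.

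The genes beside Ifnar1 were also read by themselves, since the strain background of these mice is not given in the labels. Among the 50 measured genes on each side of Ifnar1 on chromosome 16, 3 of 100 were called in the mean (3%, beside 4.19% of all genes). These were Mrap (0.83), Atp5o (-0.38) and Kcnj15 (2.14), the last being the only gene of the 8 under the stricter rule for both days that lay there. Among 20 on each side 2 of 40 were called, and of the 162 genes measured within 100 places, 8 were (4.94%). Those 8 include Mx1 (-1.43) and Mx2 (-0.37), which are in the lists of interferon-stimulated genes. Leaving out IFNAR-/- day 14 mouse 2 raised the 3 to 5.

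**Figure D5:**
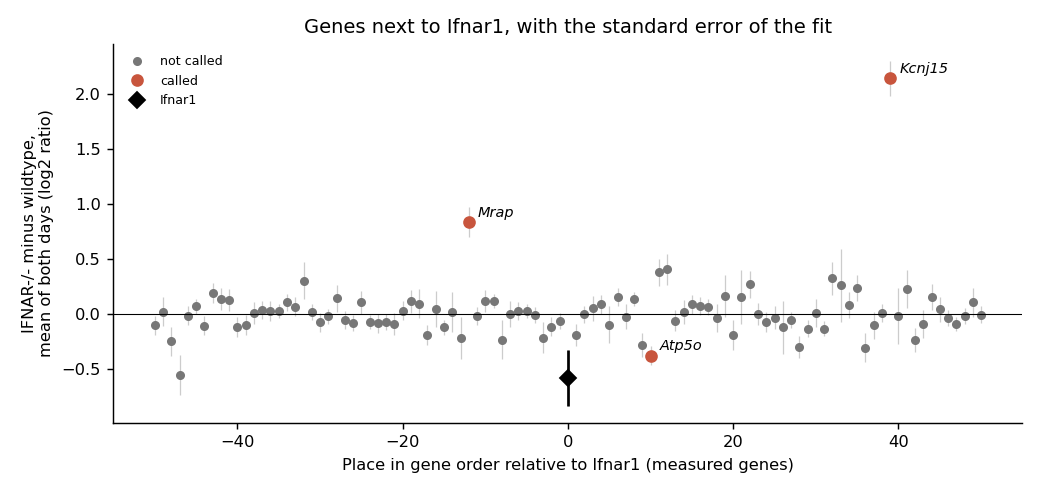
The difference in the mean of both days (y axis, log2 ratio, bars for the SE of the fit) is shown for the 50 measured genes on each side of Ifnar1 in gene order (x axis). Kcnj15 stands at 2.14, Mrap at 0.83 and Atp5o at -0.38, Ifnar1 is at -0.59 and was not called, and no other gene shown was called.

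Called genes also stood next to each other elsewhere, in runs looked for after the values were seen. On chromosome 1 Ifi213, Ifi209, Ifi207, Ifi204 and Mndal were 5 neighbours called lower, and on chromosome 8 Cd209a, Cd209e and Cd209d were 3. Ccl12 with Ccl8 and Ccl2 with Ccl7 on chromosome 11 and Rsad2 with Cmpk2, a nucleotide kinase, on chromosome 12 were pairs called lower. Of the 451 genes called lower that had a position, 69 lay in 32 such runs (15.3%), and of the 309 called higher 29 lay in 14 (9.39%). St6galnac2, BC018473 and St6galnac1 on chromosome 11 formed the longest run called higher. Neighbours of 1 family are close in sequence, so their probe sets need not be independent readings.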

How the data were processed

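The submitters' processing notes name RMA, which normalises arrays and joins the probes of a probe set. Its version is not given in the sources used here. The deposited values are ratios of each probe set to its own median over the 12 arrays (100.0% of medians were within 0.02 of 1), so signal over background is unknown. Here log2 was taken of the deposited ratios and the 34945 of 45101 probe sets with 1 gene symbol were averaged to 18193 genes. limma 3.58.1 in R 4.3.3 fitted 1 mean to each of 4 groups of 3 arrays (8 residual degrees of freedom), and the contrast was the mean of both days' differences, two-sided, with Benjamini-Hochberg adjustment over all genes. The code was tested on simulated data. The genes named are the 12 largest rises and falls among called genes with arrays apart on both days, the 6 rises and falls of similar size with the lowest p, up to 4 members of each list with several called members, up to 3 called markers of each cell type, and a set taken whatever their values; others named were chosen after their values were seen. The comparison and all lists were chosen with earlier results of these data known. Probe sets with no symbol or several were tested apart. Alternatives covered normalization, probe set summary, variance prior, weights, pairing by mouse number, arrays left out and covariates.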

Additional observations from a re-analysis of the deposited data

Results flagged for a closer look

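The following genes are named in the text and had a genotype difference that differed between the days, by limma's test of day 14 minus day 7 (adjusted p under 0.05). Among the interferon-stimulated genes the difference between the days was 1.70 in Oas1a, 1.79 in Oas3, 2.73 in Ifi209, 2.75 in Ifi213, 3.02 in Mx1, 2.31 in Zbp1, 1.63 in Sting1, 1.18 in Trim30a and 1.85 in Phf11d. All of these were lower in IFNAR-/- cells at day 7, and less so or not at day 14. Ifnb1 went from 3.03 to 0.11, a difference of -2.92, and Fam241b from 2.49 to 1.43, a difference of -1.06. Inflammatory genes were higher at day 14 only or mostly, with 2.24 in Cxcl2, 2.66 in Il1b, 2.41 in Il1a and 2.53 in Fosb, a transcription factor of the immediate-early list. Receptors of recognition and presentation moved the same way over time, with 0.97 in Clec7a, 1.81 in Cd86 and 1.46 in H2-Ab1. Ctsl went further down at day 14, by -1.80. With the 5′ to 3′ ratio as a covariate 0 of these 19 genes were called by limma for a difference between the days, although 19 had an unadjusted p under 0.05, and 3 of all genes were called (451 without it). Neither the 5′ to 3′ ratio nor the poly-A signal overlapped between the genotypes at day 14. The part of each and that of genotype cannot be told apart there. With the poly-A covariate 11 of the 19 and 175 of all genes were called, and with the trended and robust prior 6 of the 19.

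Outside the genes analysed, 116 of 10092 probe sets with no gene symbol or with several (1.15%) were called in the mean of both days by the same fit, 54 higher and 62 lower, and 975 had an unadjusted p under 0.05. The wildtype groups served as the controls of that comparison.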

How the results depend on the processing

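All 762 genes kept their direction in each of the 12 fits that left out 1 array, which a call on the same arrays largely builds in. Of the 762, 333 (130 higher, 203 lower) passed in all 12. Over those fits the count called in the mean ran from 376 (without IFNAR-/- day 7 mouse 1) to 1038 (without IFNAR-/- day 14 mouse 2), and it was 493 without wildtype day 14 mouse 2, 495 and 501 without wildtype day 7 mouse 1 or 2, and 502 without IFNAR-/- day 14 mouse 1. The other ranges were 182 to 446 for genes of similar size (340 with all arrays), 27 to 73 for genes called on both days (51), 210 to 703 at day 7 (481), 384 to 913 at day 14 (917), 138 to 485 for the difference between the days (451), 51 to 100 for called list members (84), 2 to 5 for neighbours of Ifnar1 (3) and 6.56% to 10.76% for the promoter core (7.88%). Array weights, estimated by limma, gave 2221 in the mean, 1882 at day 7, 1899 at day 14, 1765 for the difference between the days, 245 on both days, 869 of similar size, 142 list members and 11 neighbours. The 5′ to 3′ covariate gave 493, 37 at day 14, 3, 8 on both days and 217 of similar size in that order, and the poly-A covariate gave 277 at day 7, 175 for the difference between the days and 25 on both days. The additive model called 377 genes, all among the 762, and 42 list members, and the trended, robust prior called 55 list members. A difference of at least 1 as well left 181, the larger-p rule 8, a share of at least 0.7 left 183, 100 neighbours on each side gave 8, and the longer motif 3.26%. Without both arrays that stand apart 5 neighbours were called. With the mouse number as a replicate block 616 genes were called (565 of the 762). Same-numbered arrays correlated above 0.1 in 3 of 18 pairs (-0.40 to 0.23). With 3 arrays in a group this cannot tell whether arrays of the same number shared more than the number. The cause of these changes was not tested, except that fewer arrays leave fewer degrees of freedom. Of single genes, the uncalled Jak1 turned to -0.0636 with the median over probe sets and the uncalled Tyk2 to -0.0005275 without 3 arrays. Testing each probe set by itself gave only the count in the mean. The number of arrays limits the precision, and signal over background is not known.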

Other observations

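Some of the largest common differences lay in genes outside the lists, named here after their values were seen. Fbp1, the gluconeogenic fructose-bisphosphatase, had the largest difference of all called genes (-3.89, SE 0.88, limma adjusted p = 0.033), with -2.58 at day 7 and -5.20 at day 14, although its arrays overlapped on at least 1 day. C3ar1, the receptor of the complement fragment C3a, was lower by -2.06 (SE 0.30), and Ptgir, the prostacyclin receptor, by -2.08 (SE 0.36), at -2.07 and -2.09 on day 7 and day 14. Flt1, a receptor of vascular endothelial growth factor, was lower by -2.12 (SE 0.32), and Il31ra, a cytokine receptor next to Ddx4 on chromosome 13, by -1.15 (SE 0.21). Among the higher genes were both chains of basement membrane collagen that lie side by side on chromosome 8, Col4a1 (2.44, SE 0.55) and Col4a2 (2.24, SE 0.54), each with overlapping arrays and beside the endothelial and fibroblast medians given above, and Lyz2 and Lyz1, the lysozymes of macrophages and Paneth cells (0.44 and 0.39, SE 0.08 and 0.09), with arrays apart on both days.

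The counterpart of a common difference is a gene called on both days with opposite signs. There were 24 (0.132% of all genes), 16 of them lower at day 7 and higher at day 14, and 0 were called in the mean by limma. Cxcl9, an interferon-inducible attractant of T cells, was -2.64 at day 7 and 2.18 at day 14. Ccr7, the receptor that guides dendritic cells to lymph nodes, was -1.29 and 0.78, Cx3cr1, the fractalkine receptor, was -0.63 and 1.02, and Cd74, the invariant chain of class II molecules, was -0.41 and 0.44. Angptl4, an inhibitor of lipoprotein lipase, went the other way, with 0.98 and -1.10. For these genes the mean of both days is close to 0 and hides a difference on each.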
